A study of Mus musculus with 35 samples.

Results

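The expression of 8 genes was followed in microglia across postnatal development: Trem2, Tyrobp, Lyn, Syk, Btk, Plcg2, Vav1 and Inpp5d, which encode a microglial receptor, its signalling adaptor and proteins that act below them. They were chosen by name from the 55401 genes in the table of counts, and all 8 were among the 17612 genes that passed the filter on low counts (at least 0.5 CPM, the unit of counts scaled to library size, in at least 5 mice). The mice were untreated wild-type C57BL/6 males and females at postnatal day 6 (P6), postnatal day 15 (P15) and 8 weeks. Whole brains were dissociated, cells bearing CD45 were captured on an antibody-coated dish (immunopanning), and 1 mRNA library was made from the cells of each mouse. Each value below rests on 34 mice, namely 4 females and 6 males of P6 and 6 of each sex of P15 and of 8 weeks. A further library, P6 female 6, was left out of the fits and is given beside them.

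TREM2 is a lipid and lipoprotein receptor of microglia with almost no signalling part of its own. It pairs in the membrane with TYROBP (also called DAP12), whose cytoplasmic ITAM motif is phosphorylated by kinases of the Src family such as LYN. The phosphorylated motif recruits the kinase SYK, and SYK together with Tec family kinases such as BTK switches on phospholipase C gamma 2 (PLCG2), which releases calcium, and VAV1, which activates Rac and the actin cytoskeleton. SHIP1, the product of Inpp5d, removes a phosphate from the lipid product of PI3K and restrains the pathway. The chain is known for its part in the uptake of debris and myelin by microglia, and TREM2, PLCG2 and INPP5D are linked to the risk of Alzheimer's disease.

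The members lie on separate stretches of the mouse genome (GRCm38, GENCODE M21). Trem2 (ENSMUSG00000023992) and Vav1 (ENSMUSG00000034116) are both on the plus strand of chromosome 17, at chr17:48346401-48354147 and chr17:57279100-57328031. Tyrobp (ENSMUSG00000030579) spans chr7:30413760-30417585, Lyn (ENSMUSG00000042228) chr4:3678115-3813122, Syk (ENSMUSG00000021457) chr13:52583173-52648792, Plcg2 (ENSMUSG00000034330) chr8:117498291-117635142 and Inpp5d (ENSMUSG00000026288) chr1:87620312-87720507, all on the plus strand. Btk (ENSMUSG00000031264) is on the minus strand of the X chromosome at chrX:134542336-134583570. The genes annotated across Btk, Lyn and Plcg2 (pseudogenes, a snoRNA and a miRNA) are on the opposite strand, and the authors counted reads by strand.

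RefSeq promoter windows of 300 bases (GRCm38.p6, 250 bases before the annotated start and 50 after it) were at hand for 6 of the 8 members, and not for Tyrobp and Lyn. They were searched on both strands for GAGGAAGT (reverse complement ACTTCCTC), a form of the purine-rich element to which PU.1, the ETS factor that specifies macrophages and microglia, is known to bind. The 8 letters occurred in 1052 of 32851 mouse promoter windows, which is 3.2%, and in 2 of 7 member windows (Syk has a pair). The windows that hold it are shown because their genes, Inpp5d and Vav1, differ in the size of their change with age (below). The match, in capitals, begins 20 bases before the start of Inpp5d (window chr1:87620062-87620361, plus strand) and 11 bases before that of Vav1 (chr17:57278850-57279149, plus strand). The window of Trem2 (chr17:48346151-48346450, plus strand), shown beside them as the receptor of the chain, does not hold these letters. A match is a description of sequence and does not show that a factor binds there.
Inpp5d: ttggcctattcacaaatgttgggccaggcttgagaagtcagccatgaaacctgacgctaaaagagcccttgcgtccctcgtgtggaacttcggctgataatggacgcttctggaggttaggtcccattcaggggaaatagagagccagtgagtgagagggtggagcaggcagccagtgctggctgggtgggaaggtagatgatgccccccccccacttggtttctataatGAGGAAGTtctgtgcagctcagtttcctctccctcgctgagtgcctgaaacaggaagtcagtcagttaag
Vav1: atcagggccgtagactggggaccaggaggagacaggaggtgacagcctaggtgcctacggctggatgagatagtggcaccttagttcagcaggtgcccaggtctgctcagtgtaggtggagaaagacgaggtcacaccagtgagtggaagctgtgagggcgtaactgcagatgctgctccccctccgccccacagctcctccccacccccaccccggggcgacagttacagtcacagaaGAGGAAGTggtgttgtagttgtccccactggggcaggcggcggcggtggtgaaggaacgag
Trem2: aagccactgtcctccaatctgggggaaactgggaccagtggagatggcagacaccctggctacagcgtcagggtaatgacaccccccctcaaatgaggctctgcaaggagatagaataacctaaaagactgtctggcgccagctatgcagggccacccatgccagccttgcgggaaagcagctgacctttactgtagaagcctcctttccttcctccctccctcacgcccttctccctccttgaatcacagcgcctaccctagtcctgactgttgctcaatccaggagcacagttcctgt

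The CD45+ cells carried the defining markers of microglia at every age. The summed level of 6 of them (Tmem119, P2ry12, Sall1, Cx3cr1 and Fcrls among them) ran from 7417 to 13129 CPM in P6 mice, from 14735 to 28786 CPM in P15 mice and from 20236 to 28357 CPM in adults of 8 weeks, and all 6 rose from P6 to P15 and from P6 to 8 weeks. RNA of other cells was present and moved with age. Markers of neural progenitors and immature neurons had median sums of 1693, 330 and 103 CPM at the successive ages, with 9 of 9 lower at each step, and the sums of 6 neuron markers were 706, 318 and 110 CPM. Of these 6, 2 rose and 2 fell from P6 to P15 (median log2FC -0.01), and 1 rose and 4 fell from P6 to 8 weeks. Markers of monocytes and border macrophages had medians of 992, 859 and 487 CPM. From P6 to 8 weeks 2 of these 9 genes rose and 4 fell, and among its monocyte genes Ccr2 (1.66, 4.65 and 12.9 CPM) and Ly6c2 (0.488, 0.955 and 3.56 CPM) went up with age while Plac8 stood at 8.62, 8.93 and 8.16 CPM. T and NK cell markers had medians of 2.43, 3.63 and 13.1 CPM, and neutrophil markers 22.4, 36.7 and 75.8 CPM, with 3 of the 5 neutrophil genes tested higher from P6 to 8 weeks and 0 lower. The B cell list had medians of 345, 376 and 446 CPM, nearly all from Ighm (316, 330 and 409 CPM). Astrocyte markers had medians of 528, 1064 and 903 CPM, oligodendrocyte lineage markers 338, 1244 and 439 CPM, and endothelial markers 59.4, 135 and 134 CPM. In a bulk library, fewer cells of a type and less RNA per cell cannot be told apart. P6 female 6 had 3263 CPM of microglia markers and 1528 CPM of neuron markers. P15 male 1 also stood apart, with 742 CPM of neuron, 904 CPM of neural progenitor and 2956 CPM of oligodendrocyte lineage markers, each the highest at P15, and 309 CPM of monocyte and border macrophage markers, the lowest.

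Between P6 and P15 the kinases, the effectors, the phosphatase and the receptor of the chain rose under TMM scaling, which sets each gene against the bulk of all genes, and the adaptor did not pass the test. On that scale 7 of the 8 members rose and none fell, but relative to the 6 microglia markers all 8 were lower, and with neural markers as a covariate 3 rose (Trem2, Syk and Inpp5d). The median log2 fold change (log2FC) of the 8 was 0.65, beside -0.014 over all genes tested, and 30.4% of all genes rose and 31.4% fell at a false discovery rate (FDR, the Benjamini-Hochberg adjusted p of edgeR's quasi-likelihood test) below 0.05. No member passed the stricter test of a change beyond 2-fold, which 4.87% of genes passed upwards. From P15 to 8 weeks 2 members, Trem2 and Lyn, rose and none fell (24.0% of all genes rose and 23.9% fell), with a median log2FC of 0.13 over the 8 beside 0.018 over all genes, although with neural markers as a covariate neither rose and 7 members were lower. No member passed the 2-fold test in that interval, where 1.20% of genes did so upwards. Over the whole interval from P6 to 8 weeks 7 members rose and none fell, beside 37.8% of all genes higher and 36.6% lower, and the median log2FC was 0.75 beside 0.038, although all 8 were lower relative to the microglia markers and none rose with the neural covariate. Inpp5d was the member past 2-fold in that comparison, as were 11.5% of genes upwards.

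**Figure D1:**
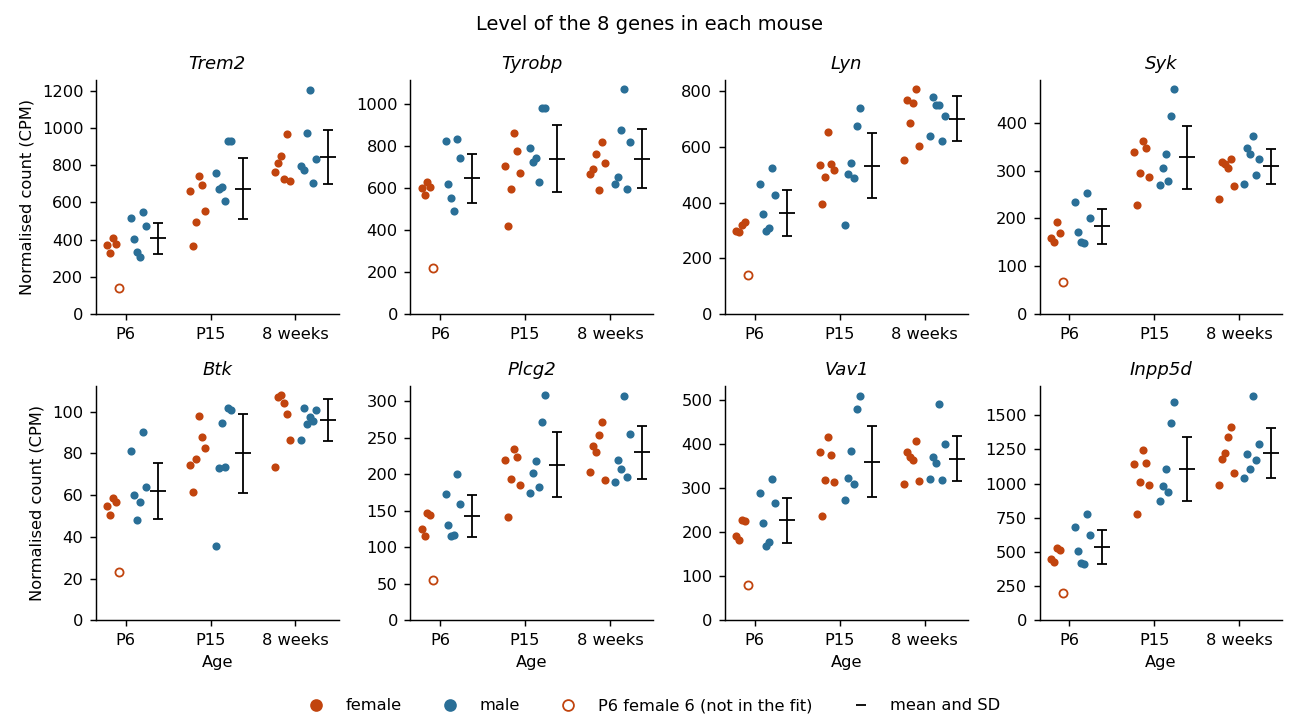
TMM-scaled level (CPM, vertical axes starting at 0) of the 8 genes in each mouse by age (horizontal axes). Filled points are mice in the fit (orange, female; blue, male), the open point is P6 female 6, and black bars give the mean and SD of the filled points. Inpp5d at P15 and at 8 weeks lies wholly above P6, while the 3 ages of Tyrobp overlap.

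Under TMM scaling the receptor rose at both steps, whereas relative to the microglia markers it was lower at P15 than at P6 (-0.52) and did not pass from P15 to 8 weeks (0.15, FDR = 0.073). Trem2 was between 307 and 549 CPM at P6 (median 388), between 368 and 932 CPM at P15 (median 676) and between 703 and 1207 CPM at 8 weeks (median 803). The P6 and 8-week mice did not overlap, and at P15 the lowest value, in P15 female 2, lay within the P6 range. Mean levels were 406 ± 82.5 CPM (SD, n = 10), 675 ± 163 CPM (n = 12) and 843 ± 144 CPM (n = 12). The log2FC was 0.74 ± 0.121 (SE) from P6 to P15 (1.67-fold, FDR = 3.71e-06), 0.33 ± 0.112 from P15 to 8 weeks (FDR = 0.0153) and 1.08 ± 0.122 from P6 to 8 weeks (2.11-fold, FDR = 2.62e-09). The change from P6 to 8 weeks did not pass the 2-fold test (FDR = 0.336). The later step was 0.46 in females (FDR = 0.0324) and 0.21 in males (FDR = 0.315), and the joint test of sex and age, given further on, did not call a difference between them.

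Tyrobp, the adaptor through which TREM2 signals, had the flattest course of the 8 under TMM scaling, whereas relative to the microglia markers it had the largest change from P6 (-1.06 to P15 and -1.24 to 8 weeks). It was between 489 and 834 CPM at P6 (median 615), between 418 and 984 CPM at P15 (median 735) and between 589 and 1074 CPM at 8 weeks (median 704), so that the 3 ages overlapped. Its means were 647 ± 116, 740 ± 159 and 741 ± 141 CPM. The log2FC was 0.21 ± 0.119 from P6 to P15 (FDR = 0.131), 0.01 ± 0.112 from P15 to 8 weeks (FDR = 0.967) and 0.21 ± 0.119 from P6 to 8 weeks (FDR = 0.104). The 95% interval of the last, from -0.02 to 0.45, leaves room for a rise of that size. With P6 female 6 included the value was 0.30 and passed (FDR = 0.0493).

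**Figure D2:**
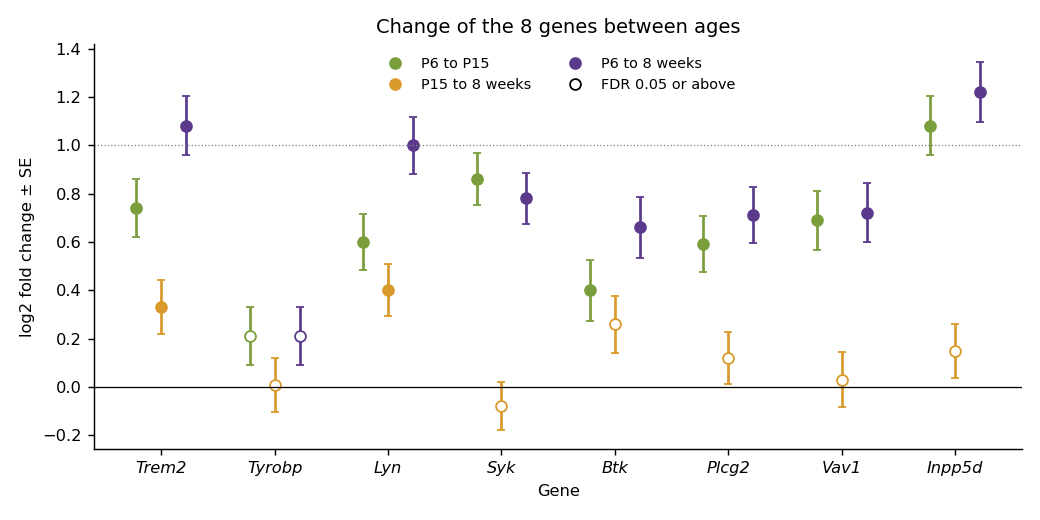
Log2FC ± SE of the 8 genes (horizontal axis) for the 3 age comparisons under TMM scaling (34 mice), with open symbols where the FDR is 0.05 or above and a dotted line at a 2-fold rise. Tyrobp has open symbols in all 3 comparisons, Trem2 and Lyn are filled in all 3, and relative to microglia markers the values from P6 turn negative for all 8.

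Within each library the receptor was set directly against its adaptor. The difference in log2 CPM, Trem2 minus Tyrobp, does not change with the scaling of the library, because both genes were counted in the same RNA. It was -0.68 ± 0.0539 (SD, n = 10; range -0.78 to -0.60) at P6, -0.14 ± 0.0818 (n = 12; -0.29 to -0.05) at P15 and 0.19 ± 0.104 (n = 12; -0.01 to 0.36) at 8 weeks. No mouse of one age fell within the range of another. At P15 Trem2 minus Tyrobp ran from -0.29 to -0.09 in females and from -0.12 to -0.05 in males. At 8 weeks it ran from -0.01 to 0.30 and from 0.02 to 0.36, and the sexes were not tested against each other. The difference rose by 0.53 from P6 to P15, 0.33 from P15 to 8 weeks and 0.87 from P6 to 8 weeks, each with p = 2e-05 in a two-sided permutation test (100000 resamples, the smallest p they can give; adjusted p over the 3 comparisons 2e-05). In females alone the rises were 0.50, 0.39 and 0.89 (exact permutation p = 0.00952, 0.00216 and 0.00952, the smallest that 4 or 6 mice against 6 allow) and in males alone 0.58, 0.28 and 0.86 (exact permutation p = 0.00216 each). P6 female 6, whose levels of both genes were far below the other P6 mice, had a difference of -0.65, inside the P6 range. These values compare counts that are not divided by transcript length, so their sign says nothing of which mRNA was more abundant. Other CD45+ cells also express Tyrobp, and the border macrophage and monocyte, T and NK cell and neutrophil markers given above moved with age. Their part in this difference was not tested.

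**Figure D3:**
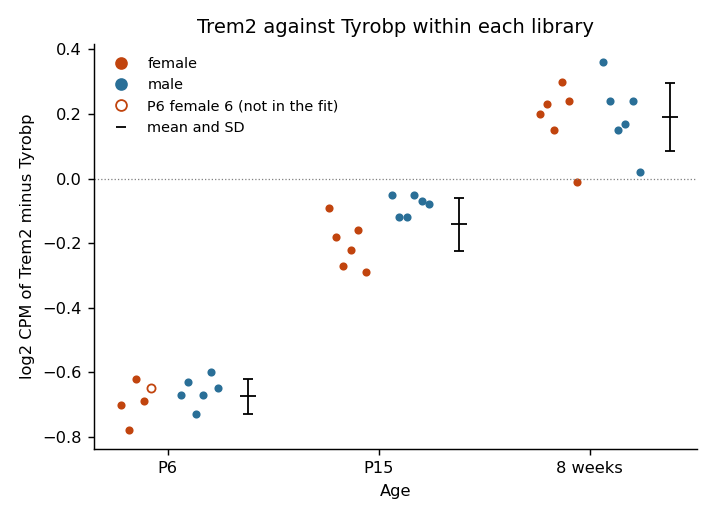
Log2 CPM of Trem2 minus Tyrobp in each library (vertical axis) by age, with females in orange, males in blue, P6 female 6 open, and black bars for the mean and SD. The 3 ages form separate bands around -0.68, -0.14 and 0.19, and the open point lies in the P6 band.

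The other members were set against Tyrobp in the same way as a description. Inpp5d minus Tyrobp went from -0.29 ± 0.0978 at P6 to 0.58 ± 0.184 at P15 and 0.73 ± 0.22 at 8 weeks, the widest shift of the 7. Syk minus Tyrobp was -1.82 ± 0.0806 at P6, -1.17 ± 0.165 at P15 and -1.25 ± 0.208 at 8 weeks. Btk minus Tyrobp was -3.39 ± 0.137, -3.22 ± 0.423 and -2.93 ± 0.284, the narrowest shift of the 7. Its SD at P15 rested on P15 male 1, and without that mouse it was 0.171 (n = 11) around a mean of -3.11.

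Lyn, the Src family kinase of the set, which phosphorylates ITAM motifs and also inhibitory receptors, rose at both steps under TMM scaling. It was between 293 and 523 CPM at P6 (median 324), between 320 and 739 CPM at P15 (median 527) and between 552 and 808 CPM at 8 weeks (median 730). The 8-week mice all lay above the P6 mice, and the lowest P15 value, in P15 male 1, lay within the P6 range. The log2FC was 0.60 ± 0.116 from P6 to P15 (FDR = 4.14e-05), 0.40 ± 0.108 from P15 to 8 weeks (FDR = 0.00329) and 1.0 ± 0.117 from P6 to 8 weeks (FDR = 4.83e-09). Relative to the microglia markers the first step was -0.68, and with the neural covariate the steps were 0.09 (FDR = 0.296) and -0.27 (FDR = 0.012).

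Syk, the kinase recruited by the phosphorylated ITAM, rose from P6 to P15 under TMM scaling and with the neural covariate (0.41). Relative to the microglia markers it was at -0.41 in that interval. Its level was between 149 and 254 CPM at P6 (median 171), between 228 and 470 CPM at P15 (median 320) and between 240 and 372 CPM at 8 weeks (median 316). The P15 and 8-week ranges overlapped widely, and 11 of 12 mice at each of these ages lay above every P6 mouse. Under TMM scaling the log2FC was 0.86 ± 0.108 from P6 to P15 (FDR = 3.6e-08) and 0.78 ± 0.107 from P6 to 8 weeks (FDR = 1.13e-07), and it was -0.08 ± 0.0994 from P15 to 8 weeks (FDR = 0.513). With the neural covariate Syk was at -0.69 from P15 to 8 weeks (FDR = 1.06e-07) and at -0.28 from P6 to 8 weeks (FDR = 0.0641).

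Btk, the Tec family kinase of the set and the sole member on a sex chromosome, was the lowest in CPM. It was between 48.2 and 90.2 CPM at P6 (median 57.7), between 35.7 and 102 CPM at P15 (median 79.9) and between 73.3 and 108 CPM at 8 weeks (median 98). P15 male 1 was the lowest of the 34 mice at 35.7 CPM, and the ages overlapped. The log2FC was 0.40 ± 0.126 from P6 to P15 (FDR = 0.00683), 0.26 ± 0.118 from P15 to 8 weeks (FDR = 0.0631) and 0.66 ± 0.127 from P6 to 8 weeks (FDR = 2.31e-05). With the neural covariate the values were -0.12 (FDR = 0.351), -0.41 (FDR = 0.00685) and -0.53 (FDR = 0.0171). Without P15 male 1 and under TMM scaling they were 0.48 (FDR = 9.59e-05), 0.16 (FDR = 0.147) and 0.64 (FDR = 5.66e-07). In males alone, with that mouse included, the change from P6 to P15 was 0.26 (FDR = 0.199). BTK is best known from B cells, of whose 6 markers 4 rose and 0 fell from P6 to P15 and 5 rose and 1 fell from P6 to 8 weeks, and the part of B cells in the rise of Btk was not tested.

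Plcg2, the phospholipase that turns the signal into calcium release, was between 115 and 201 CPM at P6 (median 137), between 141 and 308 CPM at P15 (median 210) and between 190 and 307 CPM at 8 weeks (median 225). Vav1, an exchange factor for Rac, was between 168 and 321 CPM at P6 (median 223), between 237 and 510 CPM at P15 (median 349) and between 309 and 490 CPM at 8 weeks (median 367). For both effectors the ranges of P15 and 8 weeks lay over each other. At P15, 7 of 12 mice lay above every P6 mouse for either gene, and at 8 weeks 9 of 12 did so for Plcg2 and 8 of 12 for Vav1. Plcg2 rose by a log2FC of 0.59 ± 0.116 from P6 to P15 (FDR = 5.4e-05) and 0.71 ± 0.116 from P6 to 8 weeks (FDR = 2.38e-06), and was at 0.12 ± 0.108 from P15 to 8 weeks (FDR = 0.383). Vav1 rose by 0.69 ± 0.122 from P6 to P15 (FDR = 1.31e-05) and 0.72 ± 0.122 from P6 to 8 weeks (FDR = 4.03e-06), and was at 0.03 ± 0.113 from P15 to 8 weeks (FDR = 0.843). These are values under TMM scaling. With the neural covariate Plcg2 was at 0.11 (FDR = 0.271) from P6 to P15 and -0.42 (FDR = 0.0167) from P6 to 8 weeks, and Vav1 at 0.17 (FDR = 0.0814) and -0.48 (FDR = 0.00717).

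Inpp5d, the phosphatase that restrains the pathway, had the largest fold change of the 8 from P6 to both later ages under TMM scaling, whereas relative to the microglia markers it had the smallest (-0.19 and -0.21), and with the neural covariate it was at 0.57 and 0.04. It was between 416 and 775 CPM at P6 (median 513), between 780 and 1598 CPM at P15 (median 1058) and between 987 and 1641 CPM at 8 weeks (median 1196). All mice at both later ages lay above all P6 mice, by a narrow margin at P15. The log2FC was 1.08 ± 0.122 from P6 to P15 (2.11-fold, FDR = 5.08e-09), 0.15 ± 0.112 from P15 to 8 weeks (FDR = 0.278) and 1.22 ± 0.123 from P6 to 8 weeks (2.34-fold, FDR = 1.79e-10). The last passed the 2-fold test narrowly (FDR = 0.0393), and no member passed it when any of the 4 P6 females or P15 male 1 was left out, or with limma-voom or DESeq2.

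Counted by mice, 1 of the 8 members (Inpp5d) had P15 mice all above the P6 mice, beside 5.25% of all genes, and 3 of 8 (Trem2, Lyn and Inpp5d) had 8-week mice all above the P6 mice, beside 14.8%. No member had 8-week mice all above the P15 mice, beside 1.65% of all genes. The spread within an age was shared among the members. P6 male 5 was the highest P6 mouse for each of the 8, P15 male 6 was the highest at P15 for 7 of them and P15 female 2 the lowest for 6. P6 male 5 had 13129 CPM of microglia markers, the highest at P6, and P15 male 6 had 28786 CPM, the highest at P15, while P15 female 2 had 14735 CPM, the lowest. The SD of log2 CPM was between 0.251 and 0.315 at P6, between 0.283 and 0.416 at P15 and between 0.159 and 0.258 at 8 weeks. The highest at P15, 0.416 for Btk, rested on P15 male 1, without which Btk had the lowest SD of the 8 (0.234, n = 11).

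P6 female 6 had about the same deficit in every member. It held 139 CPM of Trem2, 218 of Tyrobp, 141 of Lyn, 66.3 of Syk, 23 of Btk, 55 of Plcg2, 81.3 of Vav1 and 197 of Inpp5d, each below every other mouse. With this mouse in the fit, 7 members rose from P6 to P15 (29.6% of all genes) and 8 from P6 to 8 weeks (37.3%), the eighth being Tyrobp.

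Because the summed levels of microglia and neural markers differed between ages, the members were also fitted relative to the 6 microglia markers and with the mean of the 15 neuron and neural progenitor markers as a covariate. Scaling to the microglia markers moved the median log2FC of all genes to -1.274 from P6 to P15, to -0.182 from P15 to 8 weeks and to -1.424 from P6 to 8 weeks. On this scale all 8 members were lower at P15 than at P6 (83.4% of all genes lower, 3.13% higher) and all 8 were lower at 8 weeks than at P6 (81.9% lower, 5.59% higher). They lay above the median of all genes, from Inpp5d at -0.19 ± 0.0533 to Tyrobp at -1.06 ± 0.0787 from P6 to P15, and from Inpp5d at -0.21 ± 0.0533 to Tyrobp at -1.24 ± 0.0788 from P6 to 8 weeks. Trem2 was at -0.52 ± 0.0743 and -0.37 ± 0.0743 in these comparisons, and at 0.15 ± 0.0703 from P15 to 8 weeks (FDR = 0.073). From P15 to 8 weeks 1 member, Lyn, was higher (log2FC 0.24 ± 0.0393, FDR = 1.38e-05; 10.6% of all genes higher), and 2, Syk and Vav1, were lower (-0.25, FDR = 5.94e-05, and -0.13, FDR = 0.0148; 33.2% lower). The markers themselves rose against all genes from P6 to P15 (median log2FC 1.17), so on this scale a gene that rose less than their sum is lower. They did not rise alike. The median of Tmem119 went from 293 CPM at P6 to 2386 CPM at P15, and that of Fcrls from 1708 to 2964 CPM.

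With the neural markers as a covariate, 3 members rose from P6 to P15 (27.2% of all genes higher, 25.9% lower). These were Inpp5d (0.57 ± 0.0788, FDR = 2.95e-07), Syk (0.41 ± 0.0712, FDR = 1.37e-05) and Trem2 (0.33 ± 0.111, FDR = 0.0121). From P15 to 8 weeks none was higher (19.9% of all genes) and 7 were lower (19.8%), all but Trem2, which was at -0.22 (FDR = 0.191). From P6 to 8 weeks none was higher (25.3%) and 4 were lower (23.5%), namely Tyrobp (-0.70), Btk (-0.53), Vav1 (-0.48) and Plcg2 (-0.42). Trem2 (0.12 ± 0.195) and Inpp5d (0.04 ± 0.14) lay near 0. The covariate applies the slope seen among mice of the same age and sex to the far larger difference in neural markers between ages. From P6 to P15 Inpp5d was highest and Tyrobp lowest with the covariate, as under TMM scaling. From P6 to 8 weeks Trem2 and Inpp5d were highest and Tyrobp lowest, and the gap of Trem2 to Inpp5d was smaller than either SE. Scaling to the markers shifts all genes by about the same amount, so it leaves the order of the members as it was. The sign of a member's change depended on the scale.

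**Figure D4:**
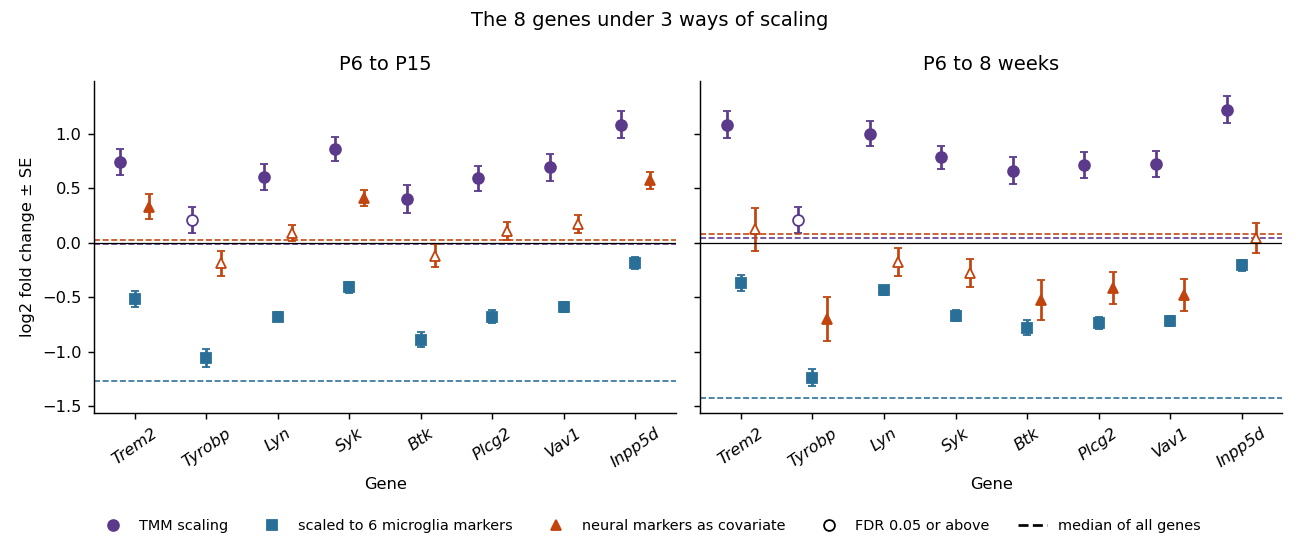
Log2FC ± SE of the 8 genes from P6 to P15 (left) and from P6 to 8 weeks (right) under TMM scaling (circles), scaled to 6 microglia markers (squares) and with neural markers as a covariate (triangles); open symbols have an FDR of 0.05 or above and dashed lines give the median of all genes. The circles lie above 0 and the squares below 0 for all 8 genes, and the squares lie above the dashed median of their scale.

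Levels of different members can be set side by side only per length of transcript. Over the longest protein-coding transcript of each gene, Tyrobp had the highest mean level at each age (1084 ± 194, 1240 ± 267 and 1241 ± 236 CPM per kb at P6, P15 and 8 weeks), followed by Trem2 (374 ± 75.8, 620 ± 149 and 775 ± 133 CPM per kb). Inpp5d came next at 108 ± 24.9, 224 ± 47.4 and 248 ± 36.7 CPM per kb, then Lyn at 105 ± 23.6, 154 ± 33.3 and 203 ± 23.4 and Vav1 at 76.6 ± 17.3, 122 ± 27.2 and 124 ± 17.3. Syk (34.2 ± 6.86, 61.1 ± 12.3 and 57.7 ± 6.84 CPM per kb), Plcg2 (33.2 ± 6.65, 49.5 ± 10.4 and 53.6 ± 8.48) and Btk (24.5 ± 5.28, 31.5 ± 7.45 and 37.9 ± 3.94) were the lowest. Inpp5d and Lyn at P6 lay within 1 SD of each other, as did Syk and Plcg2 at P6 and at 8 weeks. The place of Trem2 rests on the length used. Over its merged exons, whose 4946 bases come mostly from a transcript with a retained intron in place of the 1088 bases of its coding transcript, it was at 82.2, 136 and 171 CPM per kb, close to Lyn (89, 131 and 172) and Inpp5d (70.4, 145 and 161).

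No member was called different between males and females at any age. The share of all genes called between the sexes at P6, P15 and 8 weeks was 0.0511%, 0.0681% and 0.114%, and 0 of 8 members were called at each age with edgeR and under each alternative, limma-voom and DESeq2 included. At an unadjusted p below 0.05 there was 1 member at P6, Lyn (male minus female 0.36 ± 0.172, FDR = 0.696), 1 at P15, Trem2 (0.39 ± 0.159, FDR = 0.254), and 0 at 8 weeks. At P15 Trem2 was between 368 and 740 CPM in females (median 606) and between 609 and 932 CPM in males (median 722), so that the sexes overlapped. The 95% interval of that difference runs from 0.07 to 0.70, and at 8 weeks it runs from -0.18 to 0.44 around 0.13. X-linked Btk differed between the sexes (male minus female) by 0.28 ± 0.188 at P6 (95% interval -0.09 to 0.64). The difference in Btk was -0.01 at P15 (95% interval -0.33 to 0.32) and -0.00 at 8 weeks (-0.33 to 0.32). The P15 value includes P15 male 1, at 35.7 CPM of Btk, whereas the other P15 males lay between 72.8 and 102 CPM. The joint test of whether age changes differ between sexes called 0% of all genes and 0 of 8 members, with FDR between 0.675 (Lyn) and 0.98 (Syk), and 0 of 8 had an unadjusted p below 0.05.

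The genes whose course over the 34 mice came closest to each member were found by the root mean square difference of centred log2 CPM among 17611 other genes, as a description. The nearest to Trem2 were Tapbp (0.0932), C1qb (0.106) and Rinl (0.114), and to Tyrobp Cryl1 (0.0901), Khk (0.0994) and Coro1b (0.101). Tyrobp stood at 0.358 from Trem2 and ranked 1281 among its nearest genes. Members of the set were among the nearest for the effectors, since Plcg2 had Vav1 (0.0776) and Tbxas1 (0.0947) among its nearest, and Vav1 had Tbxas1 (0.0694), Pik3cd (0.0744) and Plcg2 (0.0776). Inpp5d was nearest to Ccdc88b (0.0769), Nfatc2 (0.0807) and Sipa1 (0.0983), and Syk to Bin1 (0.083), Psd4 (0.0903) and Galnt12 (0.0914). Lyn was nearest to Rassf5 (0.0947), Mknk1 (0.0961) and Prkcd (0.106), and Btk to Anxa3 (0.0873), Pacsin2 (0.109) and Dock2 (0.113). Prkcd, Nfatc2 and Pik3cd belong to the wider signalling chain described next. All the distances share the depth and the cell composition of the same libraries.

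The wider chain was described with 78 further genes in 10 lists, all of which passed the filter. From P6 to P15, 40 rose and 17 fell under TMM scaling (median log2FC 0.37), while 3 rose and 68 fell relative to the microglia markers and 20 rose and 19 fell with the neural covariate. Under TMM scaling 40 rose and 8 fell from P15 to 8 weeks (median 0.26), where only 12 rose and 29 fell with the neural covariate. From P6 to 8 weeks 54 rose and 10 fell (median 0.68), 24 of them past 2-fold upwards and 2 downwards, while relative to the microglia markers 10 rose and 55 fell and with the neural covariate 14 rose and 22 fell. The background shares are those given for the 8 members, and the share of all genes past 2-fold downwards is not reported here. The values that follow are on TMM scaling. A gene named because few of its list fell or did not pass was chosen after its values were seen.

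Among the ligands and the enzymes that cut TREM2 from the cell surface, 3 of 5 rose and 2 fell from P6 to 8 weeks. Apoe, which encodes the lipoprotein APOE, a ligand of TREM2, fell from 5049 ± 660 to 2696 ± 594 CPM (log2FC -0.89 ± 0.128, FDR = 2.2e-07). Over that interval 4 of 9 monocyte and border macrophage markers fell and 2 rose, and of 4 astrocyte markers 2 rose and 1 fell. The part of these cells in the fall of Apoe was not tested. Clu, whose product clusterin is a further ligand, rose from 113 ± 42.3 to 568 ± 228 CPM (2.31 ± 0.302, FDR = 4.49e-08). Clu is also a gene of astrocytes, whose 4 markers are given above, and their part in its rise was not tested. Lgals3 (galectin-3) was at 24.2 ± 4.91 CPM at P6, 6.35 ± 1.95 at P15 and 11 ± 3.8 at 8 weeks (P6 to 8 weeks -1.17 ± 0.148, FDR = 2.22e-08). The sheddases Adam10 (0.62 ± 0.146, FDR = 0.000327) and Adam17 (0.77 ± 0.134, FDR = 6.14e-06) both rose.

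Of 10 genes for other adaptors and for receptors that use such adaptors, 8 rose from P6 to 8 weeks and 0 fell (median log2FC 1.31). The list includes Hcst, whose product DAP10 is an adaptor without an ITAM. From P6 to P15 2 of the 10 rose and 4 fell, and from P15 to 8 weeks 9 rose and 0 fell. Siglech, a microglial receptor that pairs with TYROBP, went from 410 ± 101 CPM at P6 to 905 ± 165 CPM at P15 and 1268 ± 129 CPM at 8 weeks (P6 to 8 weeks 1.69 ± 0.12, FDR = 6.05e-14), with the larger step before P15 (log2FC 1.21, then 0.48). Clec5a, a further receptor that pairs with TYROBP, rose from 33.7 ± 8.7 to 84.3 ± 21.5 CPM (1.41 ± 0.18, FDR = 2.76e-08), all of it after P15, where its mean was 33.9 CPM. Sirpb1a (2.68) and Sirpb1b (2.25) are related genes with means of 1.37 CPM or less at each age. Reads that match both may be missing from both counts. Fcer1g, the ITAM adaptor of Fc receptors, was at 0.27 ± 0.128 (FDR = 0.0556) and Cd300lb at 0.11 ± 0.217 (FDR = 0.643), the pair that did not pass. Clec5a is also a gene of monocytes and neutrophils, of whose markers 2 of 9 (a list shared with border macrophages) and 3 of 5 tested rose from P6 to 8 weeks, and the part of these cells in its rise was not tested.

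Of the 10 other Src family kinases and regulators, 9 rose and 1 fell from P6 to 8 weeks (median log2FC 1.01). Pag1, an adaptor that brings the inhibitory kinase CSK to Src kinases, rose from 101 ± 16.9 to 538 ± 98.9 CPM (2.46 ± 0.133, FDR = 6.57e-17), past Lyn in fold. Fgr (2.18 ± 0.205, from 2.79 to 13.1 CPM) and Lck (1.85 ± 0.229, from 1.35 to 4.64 CPM) rose at low levels. Lck is the Src kinase of T cells. Fyn, the Src kinase that neurons and oligodendrocytes express strongly, fell from 144 ± 15 to 46.1 ± 5.78 CPM (-1.64 ± 0.0923, FDR = 1.56e-16), as the 9 neural progenitor markers and 4 of 6 neuron markers did, while 3 of 4 oligodendrocyte lineage markers rose and 1 fell. The part of these cells in it was not tested.

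Of the 3 genes around Syk, the ubiquitin ligase Cbl rose (0.50 ± 0.129, FDR = 0.000904), while Cblb was at -0.17 (FDR = 0.138) and Zap70, the T cell relative of Syk, at -0.13 (FDR = 0.494) with a mean of 2.6 CPM or less. All 4 other Tec family kinases rose. Tec itself went from 23.5 ± 6.25 to 49.9 ± 10.3 CPM (1.17 ± 0.135, FDR = 3.61e-09), whereas Txk (2.20) and Bmx (2.73) had means of 1.04 CPM or less at 8 weeks. Txk is a kinase of T and NK cells, 6 of 6 of whose markers rose from P6 to 8 weeks, and the part of these cells was not tested.

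The adaptors of PLC gamma and SYK split. Of 11 genes 7 rose and 1 fell from P6 to 8 weeks (median 0.75), with Lat2 (1.63 ± 0.136, FDR = 2.9e-12), Dok3 (1.41 ± 0.107, FDR = 2.92e-13) and Dok1 (1.20 ± 0.141, FDR = 5.25e-09) rising and Dok2 falling (-1.44 ± 0.143, FDR = 1.51e-10, from 15.6 to 5.79 CPM). The DOK proteins are docking proteins that damp tyrosine kinase signals. Plcg1, Grb2 and Gab2 were the 3 that did not pass, and Plcg1, the relative of Plcg2 that most tissues use, was at 0.07 ± 0.0636 (FDR = 0.357). Among Vav relatives, Rac and WASP, Was (0.57 ± 0.121) and Vav2 (0.36 ± 0.104) rose and Rac2 fell (-0.53 ± 0.125, FDR = 0.00034), while Vav3 was at -0.02 and Rac1 at -0.12 (FDR = 0.909 and 0.18).

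PI3K is the enzyme that makes the lipid on which SHIP1 acts. Of 8 genes for its subunits and for its adaptor BCAP (Pik3ap1), 7 rose and 1 fell (median 0.91). Pik3r5 rose the most (1.96 ± 0.13, FDR = 1.19e-14, from 40.1 ± 8.54 to 151 ± 18.5 CPM), with Pik3cg, its catalytic partner, at 1.33 ± 0.142 (FDR = 8.11e-10), Pik3r1 at 1.28 ± 0.146 (FDR = 2.79e-09) and Pik3cb at 1.04 ± 0.117 (FDR = 2.26e-09), and Pik3r2 fell (-0.75 ± 0.0918 from P6 to 8 weeks). Of 6 further lipid and SH2 phosphatases 4 rose and 1 fell. Inpp4b, which acts on the lipid that SHIP1 releases, rose by 1.46 ± 0.207 (FDR = 1.79e-07) and Ptpn6, which encodes the inhibitory phosphatase SHP-1, by 0.65 ± 0.129, and Ptpn11 fell by 0.74 on the log2 scale (SE 0.0486, FDR = 8.3e-15).

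Among 16 genes for calcium release, protein kinase C, CARD9 and further outputs, 9 rose and 3 fell from P6 to 8 weeks (median 0.42). The IP3 receptors, through which PLCG2 releases calcium, rose together: Itpr2 from 74.5 ± 14.1 to 236 ± 25 CPM (1.71 ± 0.0897, FDR = 2.6e-17), Itpr3 by 1.65 ± 0.139 (FDR = 4.03e-12) and Itpr1 by 1.43 ± 0.135 (FDR = 5.57e-11). Nfatc2, a transcription factor that calcium activates, rose by 1.25 ± 0.126 (FDR = 1.97e-10).

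**Figure D5:**
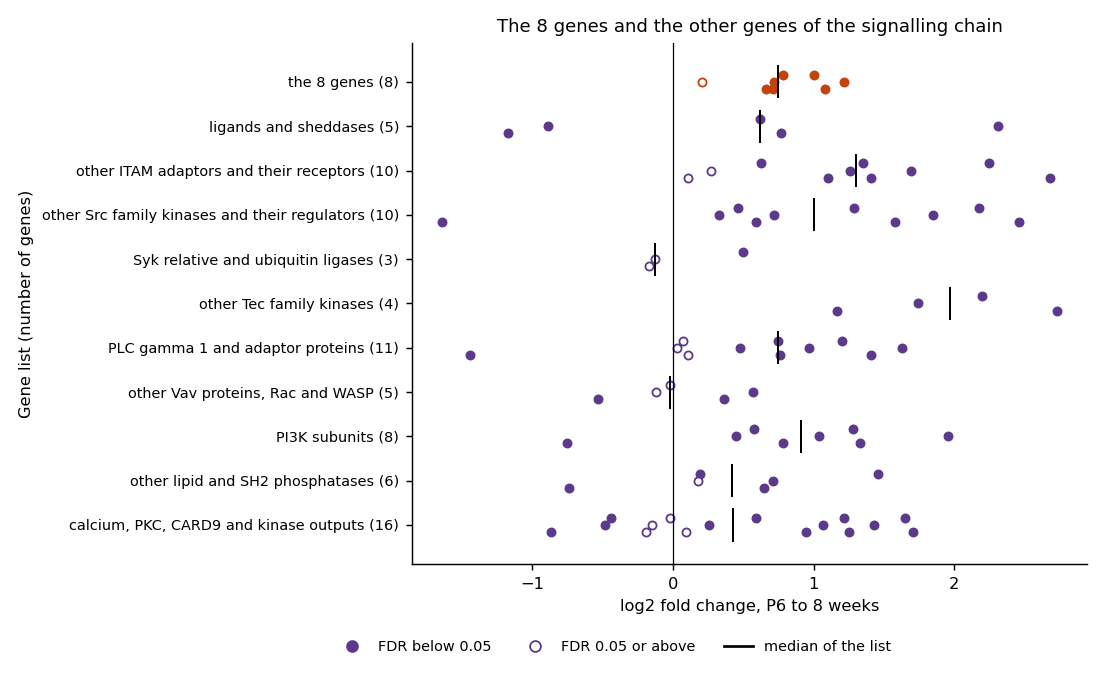
Log2FC from P6 to 8 weeks under TMM scaling (horizontal axis) for the 8 genes (orange) and 78 further genes of the chain in 10 lists (purple, number of genes in brackets), with filled points at an FDR below 0.05 and a black line at the median of each list. Of the 78 genes 54 are filled to the right of 0 and 10 to the left, and relative to microglia markers 10 rose and 55 fell.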

How the data were processed

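The authors captured CD45+ cells from whole mouse brains without meninges by immunopanning, made directional mRNA libraries, aligned the reads to GRCm38 with STAR and deposited raw counts per gene from featureCounts in reverse-stranded mode. The annotation release is not given in the sources used here. Totals ran from 23316107 to 38965078 counts per mouse (median 32742525), so that 3 counts equal 0.077 to 0.129 CPM, which covers counting error only. No member had fewer than 1059 counts in a mouse of the fits.

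The 34 mice entered edgeR 4.0.16 (R 4.3.3) with TMM scaling, a filter of at least 0.5 CPM in at least 5 mice, 6 age and sex means, and the robust quasi-likelihood test, with Benjamini-Hochberg adjustment over 17612 genes. Age contrasts weighted the sexes equally, glmTreat tested changes beyond 2-fold, and 95% intervals assume normal errors. Each library is 1 mouse. No batch was named in the labels, and no library pair within a group agreed within sampling noise (81 pairs, chi-square per gene 12.8 or more). P6 female 6 was left out by the rule for the choice of mice. The study removed 1 mouse as an outlier, and its methods do not name it. The difference of Trem2 and Tyrobp was tested by permutation (scipy 1.17.1). The edgeR steps were tested on simulated data. Alternatives changed the scaling, filter, tool (limma 3.58.1, DESeq2 1.42.0), covariates and mice.

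Named were the 8 members, lists of 5 genes or fewer in full, otherwise up to 4 genes per list with the largest changes past the test from P6 to 8 weeks, and the 3 most similar genes per member. The members and lists were chosen with earlier results of these data known. Some genes that this rule names are not reported here.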

Additional observations from a re-analysis of the deposited data

Results flagged for a closer look

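Btk in P15 male 1 was at 35.7 CPM, far from the other 5 P15 males, which lay between 72.8 and 102 CPM. On the log2 scale its gap to the nearest of them was 0.681 of the range of the group, above Dixon's 95% critical value for 6 mice, and on the CPM scale, tried after seeing the data, it was 0.562, below it. Of 54 sets examined on the log2 scale (48 of a member in an age and sex, and 6 of Trem2 minus Tyrobp) this was the single case, and chance gives such a gap in about 1 in 20 sets. The same mouse had the highest sums of neuron, neural progenitor and oligodendrocyte lineage markers at P15 (742, 904 and 2956 CPM) and 16085 CPM of microglia markers, and their part in the low Btk was not tested.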

How the results depend on the processing

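The sign of the members' changes depended on the scaling. Scaled to microglia markers, 0, 1 and 0 members were higher and 8, 2 and 8 lower (P6 to P15, P15 to 8 weeks, P6 to 8 weeks), and 3 and 10 of the 78 further genes were higher from P6 to P15 and to 8 weeks, with 68, 18 and 55 lower over the 3 comparisons. On that scale the log2FC from P6 to P15 and from P6 to 8 weeks were -0.52 and -0.37 for Trem2, -1.06 and -1.24 for Tyrobp, -0.41 and -0.67 for Syk, -0.68 and -0.74 for Plcg2, -0.19 and -0.21 for Inpp5d, -0.68 and -0.44 for Lyn, -0.89 and -0.78 for Btk and -0.59 and -0.72 for Vav1. From P15 to 8 weeks they were -0.17 for Tyrobp, -0.06 for Plcg2, -0.02 for Inpp5d and -0.13 for Vav1. With the neural covariate 3, 0 and 0 members were higher, 7 and 4 were lower from P15 to 8 weeks and from P6 to 8 weeks, and 20, 12 and 14 of the 78 genes were higher, with 29 and 22 lower in the later comparisons. Its values turned negative from P6 to P15 for Tyrobp (-0.19) and Btk (-0.12), from P15 to 8 weeks for Trem2 (-0.22), Tyrobp (-0.51), Plcg2 (-0.53), Inpp5d (-0.53), Lyn (-0.27), Btk (-0.41) and Vav1 (-0.66), and from P6 to 8 weeks for Tyrobp (-0.70), Syk (-0.28), Plcg2 (-0.42), Lyn (-0.18), Btk (-0.53) and Vav1 (-0.48). The cause was not tested.

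The count of 1 member past 2-fold upwards from P6 to 8 weeks became 0 with library size scaling, microglia marker scaling, no filter, at least 10 counts in every mouse, limma-voom, DESeq2, age without sex, the neural covariate, males alone, and without any of the 4 P6 females or without P15 male 1 (0 to 0). Relative to the microglia markers 1 member passed the 2-fold test downwards in that comparison, where the largest fall was that of Tyrobp (-1.24). Males alone called 0 members higher from P15 to 8 weeks, and females alone called 11 further genes lower from P6 to P15 and 23 higher from P15 to 8 weeks, with fewer mice in each contrast. Tyrobp from P15 to 8 weeks lay at 0 on either side: -0.00149 with library size, -0.00436 with DESeq2 and its size factors, -0.00528 with no filter, -0.00473 with at least 10 counts, -0.06 in males, and -0.02 to 0.00614 with 1 mouse left out. Vav1 in that interval was -0.01 in males and -0.03 to 0.03 with 1 mouse left out. Btk from P15 to 8 weeks passed with library size (0.26, FDR = 0.0355) and limma-voom (0.31, FDR = 0.0414).

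No pairing by replicate number was seen in the median correlation, which was 0.033 over 80 same-numbered pairs (range -0.54 to 0.69) and -0.011 for other numbers. Of the 80 pairs 27 had a correlation over 0.1, which was not counted for other numbers. With the replicate block 3 members were higher from P15 to 8 weeks, the addition being Btk (0.28, FDR = 0.0492), and no other member's call changed. Over the longest transcript, or the longest coding one, the mean CPM per kb of the 3 ages was 51 for Syk, 193 for Inpp5d, 154 for Lyn, 31.3 for Btk and 107 for Vav1, and over the coding one, added after seeing the data as was leaving out P15 male 1, it was 590 for Trem2. Trem2 minus Tyrobp kept its direction and its call under its alternatives, of which those that change only P6 mice leave the comparison of P15 with 8 weeks as it was. Among single member values 394 kept direction and call, 47 changed sign, 6 gained and 9 lost the call.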
